A study of Mus musculus with 21 samples.

Results

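The microRNA genes Mir212 and Mir132 sit side by side on mouse chromosome 11, and each hairpin yields a 5p and a 3p arm. The 4 mature microRNAs were taken by name from the deposited count table: miR-132-3p, miR-132-5p, miR-212-3p and miR-212-5p, out of 1903 named microRNAs. All 4 had a count in every one of the 21 libraries, and all 4 passed the filter on low counts which left 561 microRNAs in all. Small RNA from the left ventricle of ear-tagged C57BL/6J mice was sequenced, with 1 library made from each mouse. Sham mice had sham surgery and no drug (5 mice). TAC mice had transverse aortic constriction, which makes the left ventricle pump against a high pressure, and no drug (5 mice). TAC+PDE5A-I mice had TAC and sildenafil, an inhibitor of phosphodiesterase 5A (5 mice), and TAC+PDE9A-I mice had TAC and PF-04449613, an inhibitor of phosphodiesterase 9A (6 mice). Both drug groups therefore also carried the pressure overload, and both drugs were given for 4 weeks from 1 week after surgery. The labels name no genetic change, and no source used here gives the age or sex of the mice or the drug doses. Whole ventricular tissue was used, so that a change in the number of cells of a type and a change in the RNA per cell cannot be told apart in any value below.

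As background, the miR-132 and miR-212 hairpins are cut from a shared primary transcript, and their 3p arms are the main functional strands. The transcript is known as a target of the transcription factor CREB. In the heart both microRNAs are described as prohypertrophic: they act on the messenger RNA of Foxo3, a transcription factor that limits hypertrophy and promotes autophagy, and mice without the cluster are described as protected from pressure overload. Phosphodiesterases 5A and 9A break down cyclic GMP, a second messenger that restrains cardiac hypertrophy.

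The mature sequences are shown because the arms that carry the results share a seed, the bases 2 to 8 that pair with target messenger RNAs. They are from RefSeq on GRCm38.p6, plus strand, written 5′ to 3′ with the seed in capitals.
miR-132-3p: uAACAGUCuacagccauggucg
miR-212-3p: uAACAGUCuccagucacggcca
miR-132-5p: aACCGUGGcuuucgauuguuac
miR-212-5p: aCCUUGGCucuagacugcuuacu
The 3p arms of miR-132 and miR-212 have the same seed, AACAGUC, whose match in a target is GACUGUU. No other microRNA among 1679 mature sequences in the table used has that seed. The 3p arms are identical at 17 of 22 positions, and the first 9 bases are the same. Counted from 1 at the 5′ end, with the miR-132-3p base first, they differ by A10C, C14U, U17C, U20C and G22A. The 5p arms have different seeds, and no other mature microRNA in that table shares either. GC content was 50% for miR-132-3p, 54.5% for miR-212-3p, 45.5% for miR-132-5p and 47.8% for miR-212-5p, around the median of 50% over the tested microRNAs with a sequence.

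The hairpins follow in full because their order and spacing place all 4 arms, which are in capitals.
Mir212: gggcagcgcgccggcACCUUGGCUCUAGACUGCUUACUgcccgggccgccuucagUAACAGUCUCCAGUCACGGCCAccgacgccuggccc
Mir132: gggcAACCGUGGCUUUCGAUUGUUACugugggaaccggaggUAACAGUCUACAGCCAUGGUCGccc
In GRCm38 coordinates Mir212 lies at chr11:75173388-75173478 and Mir132 at chr11:75173682-75173747, both on the plus strand with 203 bases between them. GENCODE M21 places both inside the noncoding gene 1700016P03Rik (ENSMUSG00000085609.1, chr11:75172560-75177633, plus strand). They fall in the intron between its exon 1 (75172560 to 75172597) and its exon 2 (75173978 to 75174161). The files give no coordinates of their own. Within the hairpins, miR-212-5p occupies 75173403 to 75173425, miR-212-3p 75173443 to 75173464, miR-132-5p 75173686 to 75173707 and miR-132-3p 75173723 to 75173744.

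Levels are given as CPM, a count relative to its library's total, scaled between libraries by the trimmed mean of M values (TMM). Total counts were 3766517 to 7490436 per Sham library, 5373960 to 8497792 per TAC library, 1205417 to 3969716 per TAC+PDE5A-I library and 1546318 to 7532591 per TAC+PDE9A-I library. The 4 libraries under 2000000 counts were TAC+PDE5A-I 3, 4 and 5 and TAC+PDE9A-I 5. In these 4 the count-weighted GC content of the mature sequences was 47.2% to 48.6%, against 44.6% to 46% in the other 17. By group it was 44.6% to 45% in Sham, 44.9% to 45.1% in TAC, 46% to 48.6% in TAC+PDE5A-I and 44.7% to 47.2% in TAC+PDE9A-I. Every TAC+PDE5A-I library, shallow or not, thus lay above every TAC and Sham library. The heart muscle markers (miR-499-5p, miR-208a-3p, miR-133a-3p, miR-1a-3p) were all counted in every group and summed to 140000 to 178000 CPM per library in Sham, 77700 to 144000 in TAC, 141000 to 269000 in TAC+PDE5A-I and 72300 to 195000 in TAC+PDE9A-I. Yet in TAC+PDE5A-I against TAC 3 of these 4 fell and 1 rose. The endothelial list (2 microRNAs) summed to 999 to 15700 CPM in TAC+PDE5A-I against 25800 to 43000 CPM in TAC. Of its microRNAs 1 fell, 0 rose and 1 was not called. Neurons are another known source of the cluster. The neuronal microRNA miR-124-3p had no count in any library, which at 3 counts allows from 0.353 to 2.49 CPM depending on depth. The 8 neuronal markers summed to 529 to 684 CPM in Sham, 410 to 470 in TAC, 201 to 545 in TAC+PDE5A-I and 363 to 656 in TAC+PDE9A-I. Most of that sum was miR-128-3p (157 to 623 CPM). The smooth muscle list (2 microRNAs) summed to 4830 to 43200 CPM in TAC+PDE5A-I against 70100 to 143000 in TAC, the leukocyte list (5) to 2180 to 3150 against 1400 to 2520, and the erythroid list (2) to 20.9 to 387 against 392 to 1070. The sums hide moves in both directions. In TAC+PDE5A-I against TAC 1 smooth muscle microRNA rose and 1 fell, and 1 leukocyte microRNA rose and 3 fell (median log2 fold change -2.37). Of the erythroid list 0 rose and 2 fell, beside 21.6% higher and 24.8% lower of all tested. The part of other cell types in the values below was not tested.

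In Sham hearts miR-132-3p averaged 259 ± 37.4 CPM (SD, n = 5) and ranked 105 of 561 tested microRNAs. The miR-212-3p arm averaged 61.2 ± 14.3 CPM (rank 171), miR-132-5p 14.3 ± 2.55 CPM (rank 271) and miR-212-5p 10.1 ± 3.22 CPM (rank 311). The 4 arms together made 344 ± 32.8 CPM in Sham, 444 ± 162 CPM in TAC (n = 5), 621 ± 123 CPM in TAC+PDE5A-I (n = 5) and 476 ± 136 CPM in TAC+PDE9A-I (n = 6). The most abundant arm was the same in every library, and miR-132-3p held between 53.8% and 84.7% of the cluster's counts in each library.

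**Figure D1:**
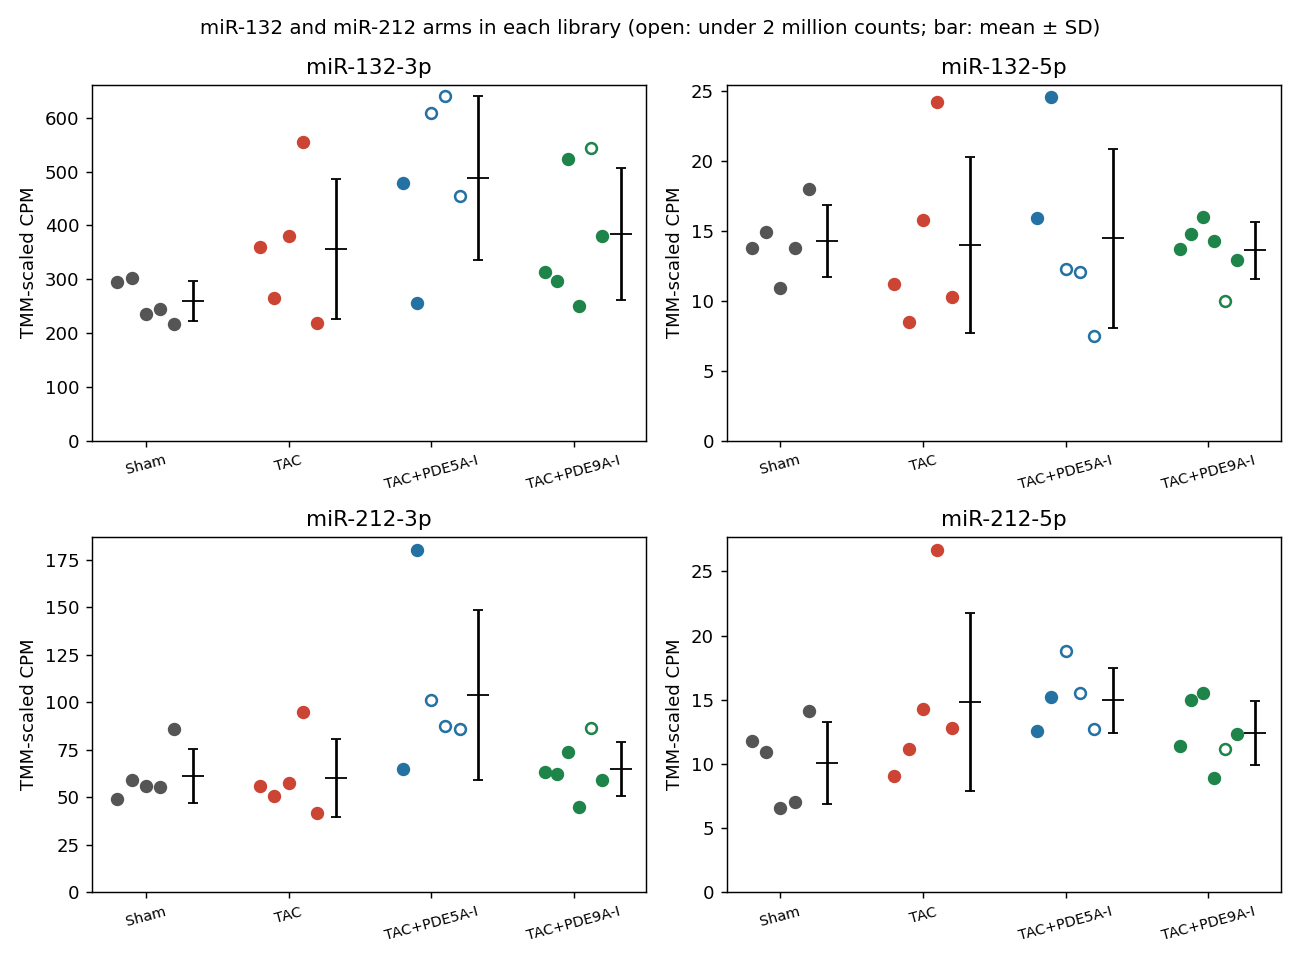
TMM-scaled CPM of the 4 arms (y axis) in each library, by group, with open points for libraries under 2000000 counts and a bar for the mean ± SD. The 4 groups overlap for every arm, miR-132-3p has its lowest group mean in Sham (259 CPM) and its highest in TAC+PDE5A-I (488 CPM), and TAC+PDE5A-I 2 stands at 180 CPM for miR-212-3p.

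The main arm, miR-132-3p, measured 294, 302, 236, 245 and 217 CPM in Sham 1 to 5 and 359, 265, 381, 555 and 218 CPM in TAC 1 to 5. In TAC+PDE5A-I 1 to 5 it measured 478, 256, 610, 640 and 454 CPM. In TAC+PDE9A-I it ran from 250 to 544 CPM with a median of 347. Sham was low and close together, TAC spanned from the Sham range to more than its top, and under sildenafil 4 of 5 libraries lay above all Sham libraries while replicate 2 lay among them. By mean the order was Sham, TAC (356 ± 130), TAC+PDE9A-I (385 ± 123) and TAC+PDE5A-I (488 ± 153), and no neighbours in this order differed beyond their spread (adjusted p = 0.519, 0.991 and 0.318). The 4 libraries under 2000000 counts held 454 to 640 CPM and the other 17 held 217 to 555.

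The second arm of the same seed, miR-212-3p, measured 49.3, 59.2, 56.1, 55.4 and 85.9 CPM in Sham 1 to 5 and 55.8, 50.6, 57.7, 94.9 and 41.6 CPM in TAC 1 to 5. In TAC+PDE5A-I 1 to 5 it measured 64.7, 180, 101, 87.6 and 85.8 CPM. In TAC+PDE9A-I it ran from 44.8 to 86.2 CPM with a median of 62.8. All 5 sildenafil libraries lay above 4 of the 5 TAC libraries, yet the groups overlapped through TAC 4, and TAC+PDE5A-I 2 stood far above every other library of the study. TAC (60.1 ± 20.4), Sham (61.2 ± 14.3) and TAC+PDE9A-I (64.9 ± 14.0) followed each other without a difference beyond their spread (adjusted p = 0.986 and 0.983), and TAC+PDE5A-I (104 ± 44.5) came last.

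The passenger arm miR-132-5p measured 13.8, 14.9, 10.9, 13.8 and 18.0 CPM in Sham 1 to 5, and 11.2, 8.48, 15.8, 24.2 and 10.3 CPM in TAC 1 to 5. In TAC+PDE5A-I 1 to 5 it measured 15.9, 24.6, 12.3, 12.1 and 7.46 CPM, and in TAC+PDE9A-I it ran from 10 to 16 CPM with a median of 14. The 4 group means lay within 13.6 to 14.5 CPM, in the order TAC+PDE9A-I, TAC, Sham and TAC+PDE5A-I, with no neighbours apart (adjusted p = 0.991, 0.986 and 0.922). These values rest on 10 to 198 counts per library. The lowest, 10 counts in TAC+PDE5A-I 5, has an exact 95% Poisson interval of 3.58 to 13.7 CPM, which covers counting error only.

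The arm miR-212-5p measured 11.8, 10.9, 6.58, 7.02 and 14.1 CPM in Sham 1 to 5 and 9.03, 11.2, 14.3, 26.7 and 12.8 CPM in TAC 1 to 5. In TAC+PDE5A-I 1 to 5 it measured 12.6, 15.2, 18.8, 15.5 and 12.7 CPM, and in TAC+PDE9A-I it ran from 8.9 to 15.5 CPM with a median of 11.8, on 17 to 219 counts per library over all groups. TAC 4 was the highest library of the study for this arm, as it was within TAC for the other 3, and the groups overlapped throughout. Sham had the lowest mean (10.1 ± 3.22), followed by TAC+PDE9A-I (12.4 ± 2.5), TAC (14.8 ± 6.95) and TAC+PDE5A-I (15 ± 2.56), with no neighbours apart (adjusted p = 0.913, 0.991 and 0.976).

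TAC against Sham asked whether pressure overload alone raised the cluster. None of the 4 arms passed the test, beside 2.32% of the 561 tested microRNAs (2.14% higher and 0.178% lower). The log2 fold change of miR-132-3p was 0.46 ± 0.28 (SE, 95% interval -0.12 to 1.04, adjusted p = 0.519), a 1.37-fold difference of the fitted means, and that of miR-212-5p was 0.55 ± 0.28 (-0.04 to 1.14, adjusted p = 0.366). The values of miR-132-5p (-0.03, interval -0.64 to 0.59) and miR-212-3p (-0.03, interval -0.58 to 0.53) lay near 0. Unadjusted, p was 0.114 for miR-132-3p, 0.0639 for miR-212-5p, 0.925 for miR-212-3p and 0.927 for miR-132-5p. The median over the 4 arms was 0.22 and that over all tested microRNAs -0.08, and 0 arms had groups that did not overlap, beside 16.9% of all tested. TAC 4 carried much of the difference: without it the log2 fold change was 0.25 for miR-132-3p and 0.24 for miR-212-5p. Within the mice with ear tags in the 100s (2 TAC, 3 Sham) miR-132-3p differed by 0.16 and within the 600s (2 and 2) by 0.59 on the log2 scale, and miR-212-5p by 0.08 and 0.87.

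**Figure D2:**
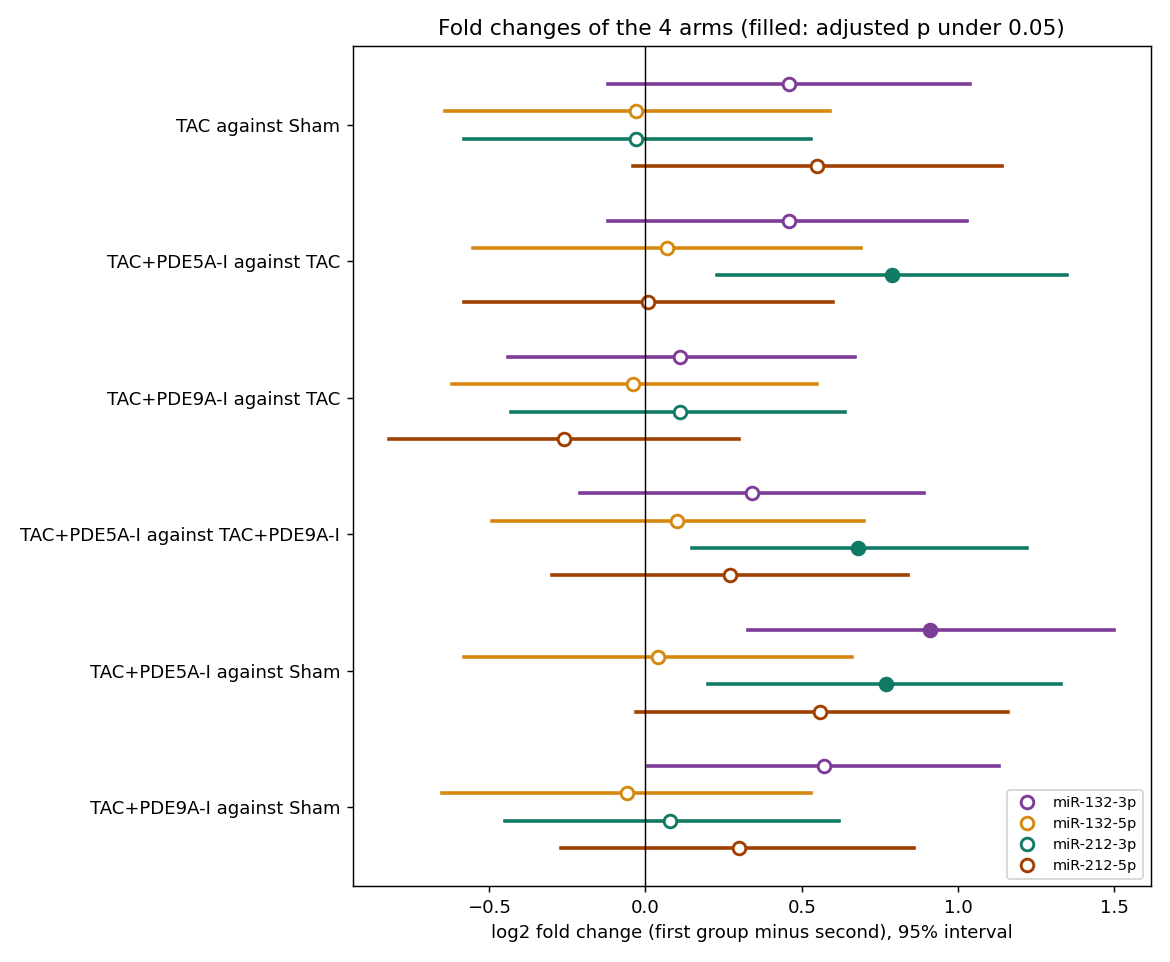
Log2 fold change with its 95% interval (x axis) for the 4 arms in the 6 comparisons, first group minus second, with filled points for adjusted p under 0.05. The 4 filled points are miR-212-3p in the 3 comparisons of TAC+PDE5A-I with another group (0.79, 0.68 and 0.77) and miR-132-3p in TAC+PDE5A-I against Sham (0.91).

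TAC+PDE5A-I against TAC asked what sildenafil did to the cluster in the overloaded heart. miR-212-3p rose 1.73-fold, from 60.1 ± 20.4 to 104 ± 44.5 CPM (n = 5 each), a log2 fold change of 0.79 ± 0.27 (95% interval 0.23 to 1.35, adjusted p = 0.0216). That was 1 of 4 arms higher and 0 lower, beside 46.3% of the 561 tested microRNAs that changed, 21.6% upward and 24.8% downward. The other arm of the seed, miR-132-3p, had 0.46 ± 0.28 (interval -0.12 to 1.03, adjusted p = 0.185), miR-132-5p 0.07 ± 0.30 (-0.55 to 0.69, adjusted p = 0.883) and miR-212-5p 0.01 ± 0.28 (-0.58 to 0.60, adjusted p = 0.976). No arm had groups that did not overlap, beside 33.9% of all tested. The median was 0.26 over the 4 arms and -0.31 over all tested microRNAs. Other scalings moved the latter from -0.46 (RLE size factors) to 0.16 (upper quartile), and relative to it miR-212-3p stood 1.1 to 1.14 higher under each of the 4 scalings.

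The rise of miR-212-3p rested in large part on TAC+PDE5A-I 2: without this library the log2 fold change was 0.24 ± 0.24 (adjusted p = 0.42). The call was also lost without TAC 2, 3 or 5 or TAC+PDE5A-I 3, 4 or 5 (adjusted p = 0.0511 to 0.134), and it held, at 1.04 ± 0.33 (adjusted p = 0.0368), without the 3 sildenafil libraries and the 1 other library under 2000000 counts, where TAC+PDE5A-I 2 was 1 of 2 left. Count-weighted GC content was 46% to 48.6% in TAC+PDE5A-I and 44.9% to 45.1% in TAC, without overlap. For miR-132-3p a correction for the GC content of the sequences moved the log2 fold change to 1.08 ± 0.37 (adjusted p = 0.0278). With the same correction miR-132-5p stood at 1.15 ± 0.25 (adjusted p = 0.00298) and miR-212-5p at 0.86 ± 0.32 (adjusted p = 0.0438), while miR-212-3p had 0.82 ± 0.27 (adjusted p = 0.0239). Without the 4 libraries under 2000000 counts miR-132-3p had a log2 fold change of 0.07. Within the ear tag 500s (2 sildenafil mice, 1 TAC mouse) miR-212-3p differed by 0.90 and within the 600s (3 and 2) by 0.54, and the call was lost when the fit held a term for ear tag range (adjusted p = 0.0686). For miR-132-3p the differences were -0.12 and 0.69.

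TAC+PDE9A-I against TAC asked the same of PF-04449613. None of the 4 arms passed and 0% of the 561 tested microRNAs did in edgeR, with 16 at an unadjusted p under 0.05 and 4 called by DESeq2, none of them a member. The log2 fold changes were 0.11 ± 0.27 for miR-132-3p (95% interval -0.44 to 0.67), 0.11 ± 0.26 for miR-212-3p (-0.43 to 0.64), -0.04 ± 0.28 for miR-132-5p (-0.62 to 0.55) and -0.26 ± 0.27 for miR-212-5p (-0.82 to 0.30), each with adjusted p = 0.991. No arm had groups that did not overlap, as did 0% of all tested, and the median was 0.04 over the arms against -0.04 over all tested. Without TAC+PDE9A-I 5, the library of this group under 2000000 counts, miR-132-3p had a log2 fold change of 0 and miR-212-3p of 0.02, and without TAC 4 the values were 0.32 for miR-132-3p, 0.33 for miR-212-3p, 0.25 for miR-132-5p and 0.06 for miR-212-5p, none called.

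TAC+PDE5A-I against TAC+PDE9A-I compared the drugs at the same time after surgery and tests the difference of their effects, since both are set against the same TAC libraries. miR-212-3p was 1.61-fold higher under sildenafil, 104 ± 44.5 CPM (n = 5) against 64.9 ± 14.0 CPM (n = 6), a log2 difference of 0.68 ± 0.26 (95% interval 0.15 to 1.22, adjusted p = 0.0434). That was 1 of 4 arms higher, beside 34.8% of the tested microRNAs called, 15.2% higher and 19.6% lower. The other arms had differences of 0.34 (interval -0.21 to 0.89) for miR-132-3p, 0.10 (-0.49 to 0.70) for miR-132-5p and 0.27 (-0.30 to 0.84) for miR-212-5p, with adjusted p = 0.318, 0.81 and 0.459. With the GC correction miR-132-5p passed at 0.88 ± 0.24 (adjusted p = 0.0296), miR-212-5p had 0.89 ± 0.31 (adjusted p = 0.0575), and the miR-212-3p call was lost at 0.63 ± 0.25 (adjusted p = 0.0944). No arm had groups that did not overlap, beside 1.96% of all tested, and the median was 0.31 over the arms against -0.25 over all tested. The miR-212-3p call was lost without any 1 of the 11 libraries (adjusted p = 0.0616 to 0.493), and most of the difference went without TAC+PDE5A-I 2, where it was 0.20 ± 0.23. Within ear tag ranges the difference was 0.73 in the 500s (2 and 4 mice) and 0.63 in the 600s (3 and 1).

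TAC+PDE5A-I against Sham set hearts with both pressure overload and sildenafil beside hearts with neither. Both arms of the shared seed were higher. miR-132-3p rose 1.88-fold, from 259 ± 37.4 to 488 ± 153 CPM (n = 5 each), a log2 fold change of 0.91 ± 0.28 (95% interval 0.33 to 1.5, adjusted p = 0.0131), and miR-212-3p rose 1.70-fold, from 61.2 ± 14.3 to 104 ± 44.5 CPM (0.77 ± 0.27, interval 0.20 to 1.33, adjusted p = 0.0282). That made 2 of 4 arms higher and 0 lower, beside 42.6% of the tested microRNAs called, 19.1% higher and 23.5% lower. The 5p arms did not pass: miR-212-5p had 0.56 ± 0.29 (interval -0.03 to 1.16, adjusted p = 0.12) and miR-132-5p 0.04 ± 0.30 (-0.58 to 0.66, adjusted p = 0.922). With the GC correction both 5p arms passed, at 1.32 ± 0.32 for miR-212-5p (adjusted p = 0.00458) and 1.01 ± 0.25 for miR-132-5p (adjusted p = 0.00522). No arm had groups that did not overlap, beside 32.8% of all tested, and the median was 0.66 over the arms against -0.28 over all tested.

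For miR-132-3p the call was lost without TAC+PDE5A-I 3 (0.60, adjusted p = 0.0885) or 4 (0.58, adjusted p = 0.099), and without the 4 libraries under 2000000 counts the log2 fold change was 0.50 ± 0.32 (adjusted p = 0.309). For miR-212-3p it was lost without TAC+PDE5A-I 2 (0.38, adjusted p = 0.202), 3, 4 or 5 or Sham 1, 2, 3 or 4 (adjusted p = 0.053 to 0.122). With a term for ear tag range in the fit, miR-132-3p had 0.86 ± 0.34 (adjusted p = 0.0577) and miR-212-3p 0.59 ± 0.31 (adjusted p = 0.14), and neither call held. Sham held no mouse with an ear tag in the 500s. Within the 600s (3 and 2 mice) miR-132-3p differed by 1.28 and miR-212-3p by 0.40.

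TAC+PDE9A-I against Sham gave no call among the 4 arms, beside 1.96% of the tested microRNAs (1.25% higher and 0.713% lower). The largest difference was that of miR-132-3p, 385 ± 123 CPM (n = 6) against 259 ± 37.4 CPM (n = 5), with a log2 fold change of 0.57 ± 0.27 (95% interval 0.01 to 1.13, unadjusted p = 0.0455, adjusted p = 0.415). The others were 0.30 ± 0.27 for miR-212-5p (interval -0.27 to 0.86), 0.08 ± 0.26 for miR-212-3p (-0.45 to 0.62) and -0.06 ± 0.28 for miR-132-5p (-0.65 to 0.53), with adjusted p = 0.913, 0.983 and 0.991. No arm had groups that did not overlap, beside 3.92% of all tested, and the median was 0.19 over the arms against -0.06 over all tested.

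**Figure D3:**
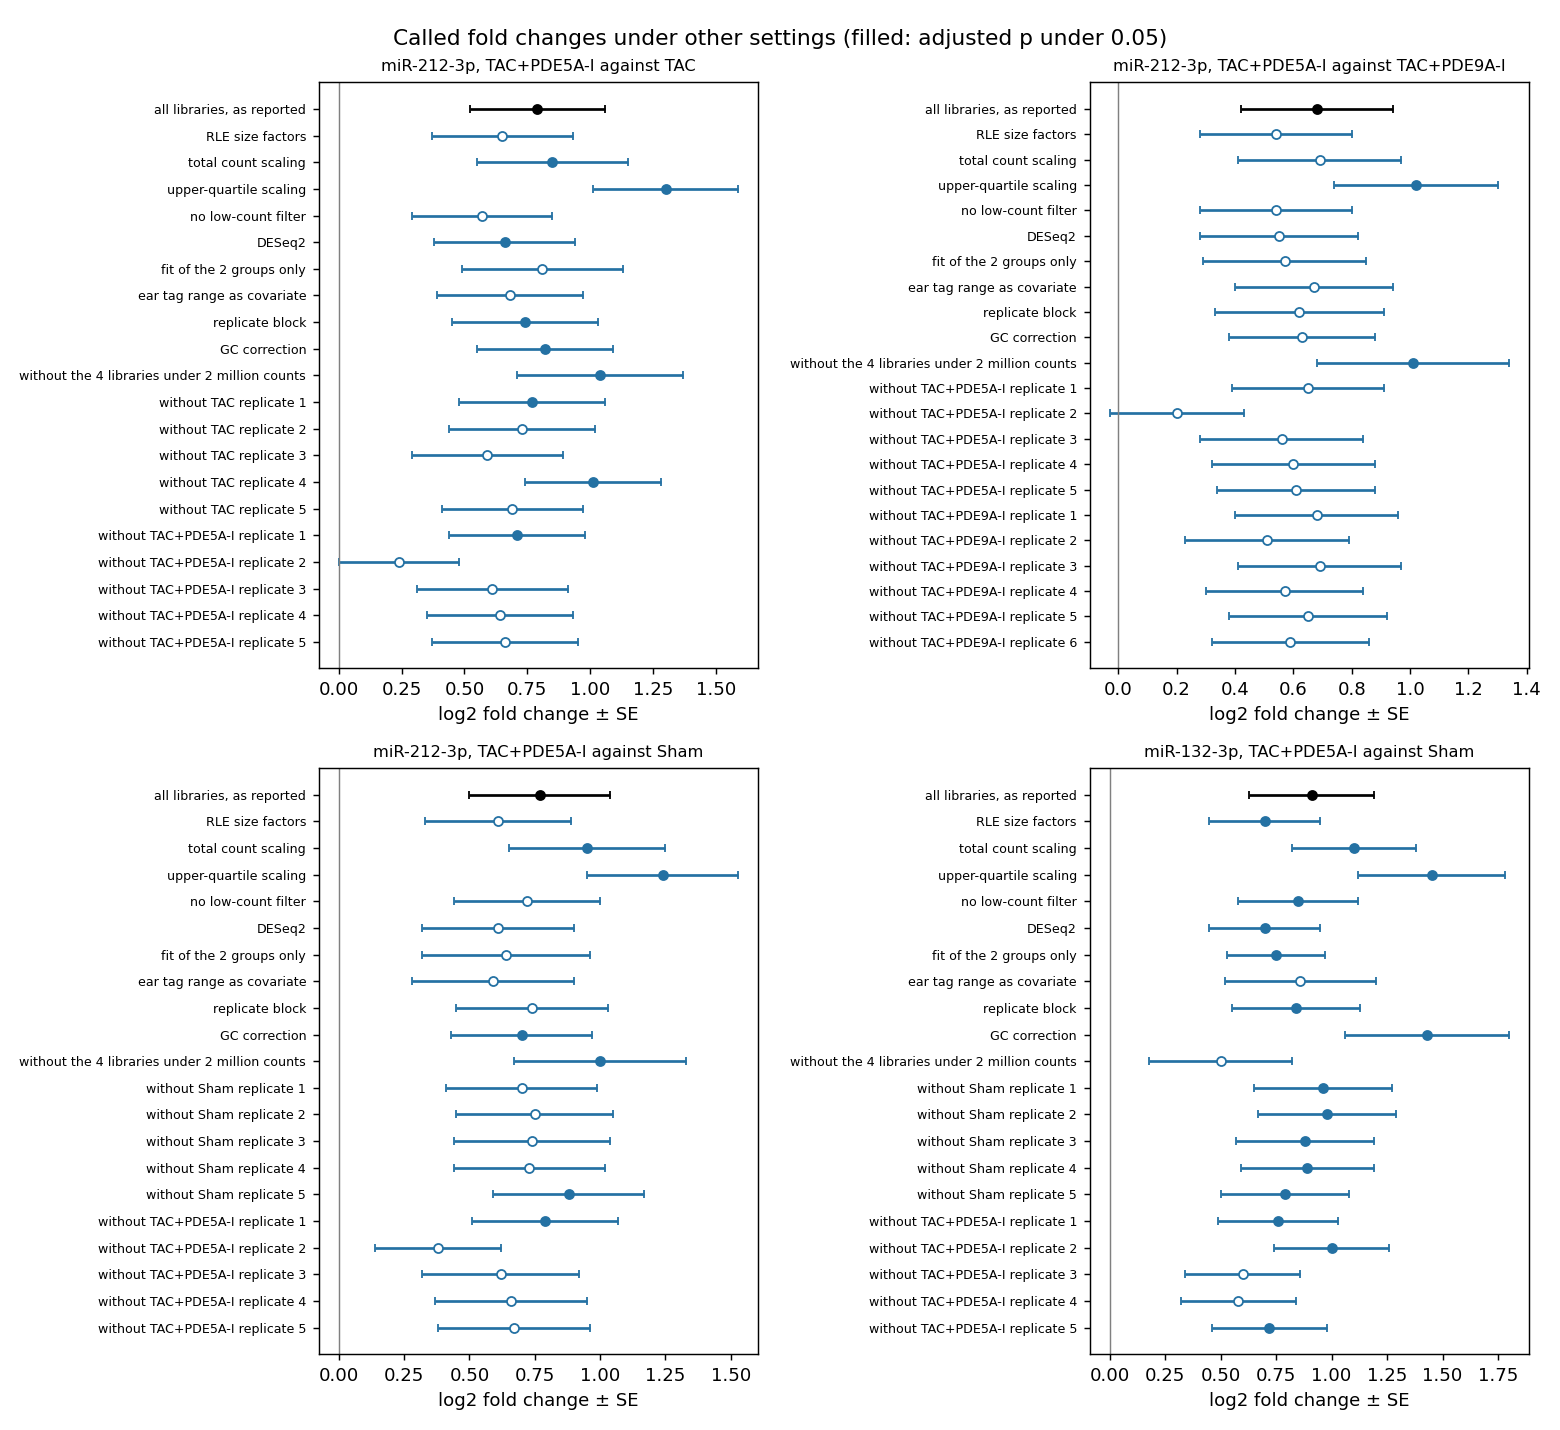
Log2 fold change ± SE (x axis) of the 4 called differences under each alternative setting and with each library left out (y axis), with filled points for adjusted p under 0.05. All values are above 0, and miR-212-3p reaches its lowest value, 0.24, 0.20 and 0.38, without TAC+PDE5A-I replicate 2.

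The arms of shared seed were then set against each other within each library, which removes the scaling between libraries. The ratio of miR-132-3p to miR-212-3p was 4.20 to 7.39 in 19 libraries. It was 2.53 in Sham 5 and 1.42 in TAC+PDE5A-I 2. In TAC+PDE5A-I 2, 805 counts were miR-212-3p and 1147 were miR-132-3p, so that miR-212-3p made 37.8% of the cluster (exact 95% binomial interval 35.7% to 39.9%, counting error only), and in Sham 5 it made 25.6% (23.6% to 27.7%). In both libraries miR-132-3p was at the lowest value of its group (256 and 217 CPM) while miR-132-5p, from the same hairpin, was at the highest (24.6 and 18.0 CPM). TAC 4, where miR-212-3p was 94.9 CPM and miR-132-3p 555 CPM, had a ratio of 5.85, and TAC+PDE5A-I 3, with 101 and 610 CPM, had 6.01.

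**Figure D4:**
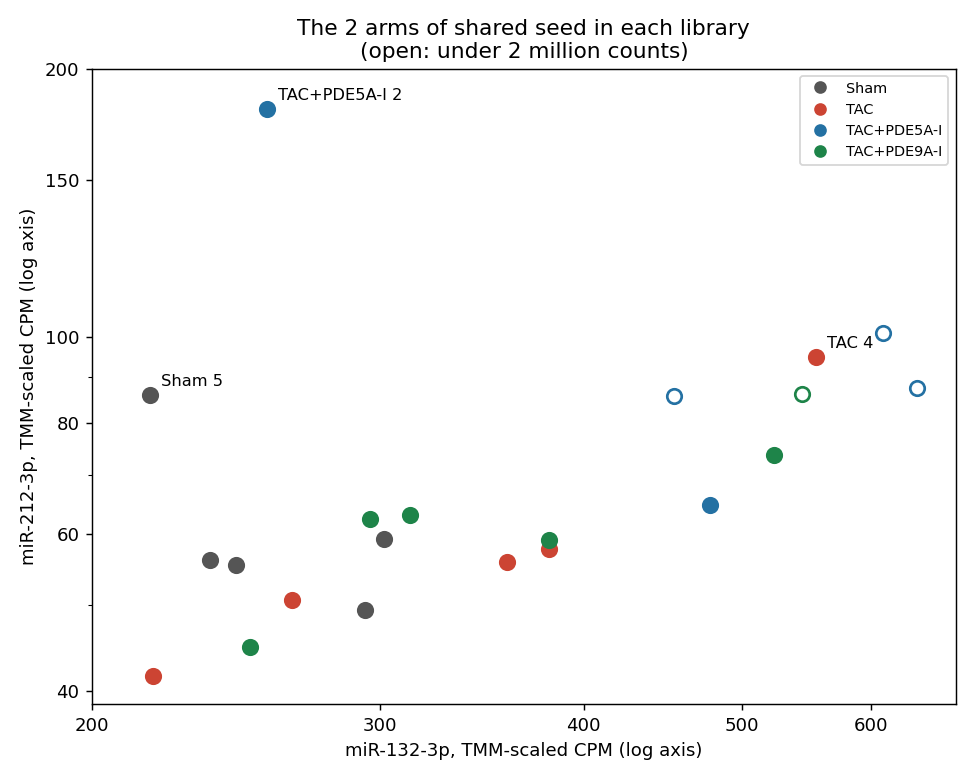
miR-132-3p (x axis) against miR-212-3p (y axis) in each library, both as TMM-scaled CPM on log axes, coloured by group, with open points for libraries under 2000000 counts. In 19 libraries the levels keep a ratio of miR-132-3p to miR-212-3p between 4.20 and 7.39. The ratio is lower in TAC+PDE5A-I 2 (256 and 180 CPM, ratio 1.42) and Sham 5 (217 and 85.9 CPM, ratio 2.53).

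The ratio between the arms of the miR-132 hairpin also varied between libraries. The ratio of miR-132-3p to miR-132-5p was 18.6 ± 3.95 in Sham (12.1 to 21.6, n = 5), 26.3 ± 5.03 in TAC (21.1 to 32.1, n = 5), 40.7 ± 20.3 in TAC+PDE5A-I (10.4 to 60.8, n = 5) and 29.5 ± 13.5 in TAC+PDE9A-I (17.5 to 54.4, n = 6). The 4 libraries under 2000000 counts, a limit chosen after seeing the data, had ratios of 49.5 to 60.8, and the other 17 had 10.4 to 32.8, without overlap. Among those 17, the lowest ratio was in TAC+PDE5A-I 2, which had 3969716 counts. The 4 under 2000000 counts had the higher count-weighted GC content given above, and the part of depth or GC content in the ratio was not tested. Their miR-132-5p values rested on 10 to 18 counts. The exact 95% Poisson intervals of these values had half-widths of 49.4% to 68%, for counting error only. In the miR-212 hairpin the 3p to 5p ratio was 6.42 ± 1.78 in Sham, 4.31 ± 1.15 in TAC, 6.96 ± 2.80 in TAC+PDE5A-I and 5.33 ± 1.23 in TAC+PDE9A-I. There the 4 libraries under 2000000 counts (5.38 to 7.67) lay within the range of the other 17 (3.25 to 11.8).

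Between the 5p arms, the ratio of miR-132-5p to miR-212-5p was 1.49 ± 0.321 in Sham and 0.962 ± 0.202 in TAC, with 1.18 to 1.96 in the former and 0.759 to 1.24 in the latter. It was 0.981 ± 0.443 in TAC+PDE5A-I and 1.13 ± 0.256 in TAC+PDE9A-I. The 4 libraries under 2000000 counts had 0.588 to 0.889 and the other 17 had 0.759 to 1.96. No test was run on these ratios.

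**Figure D5:**
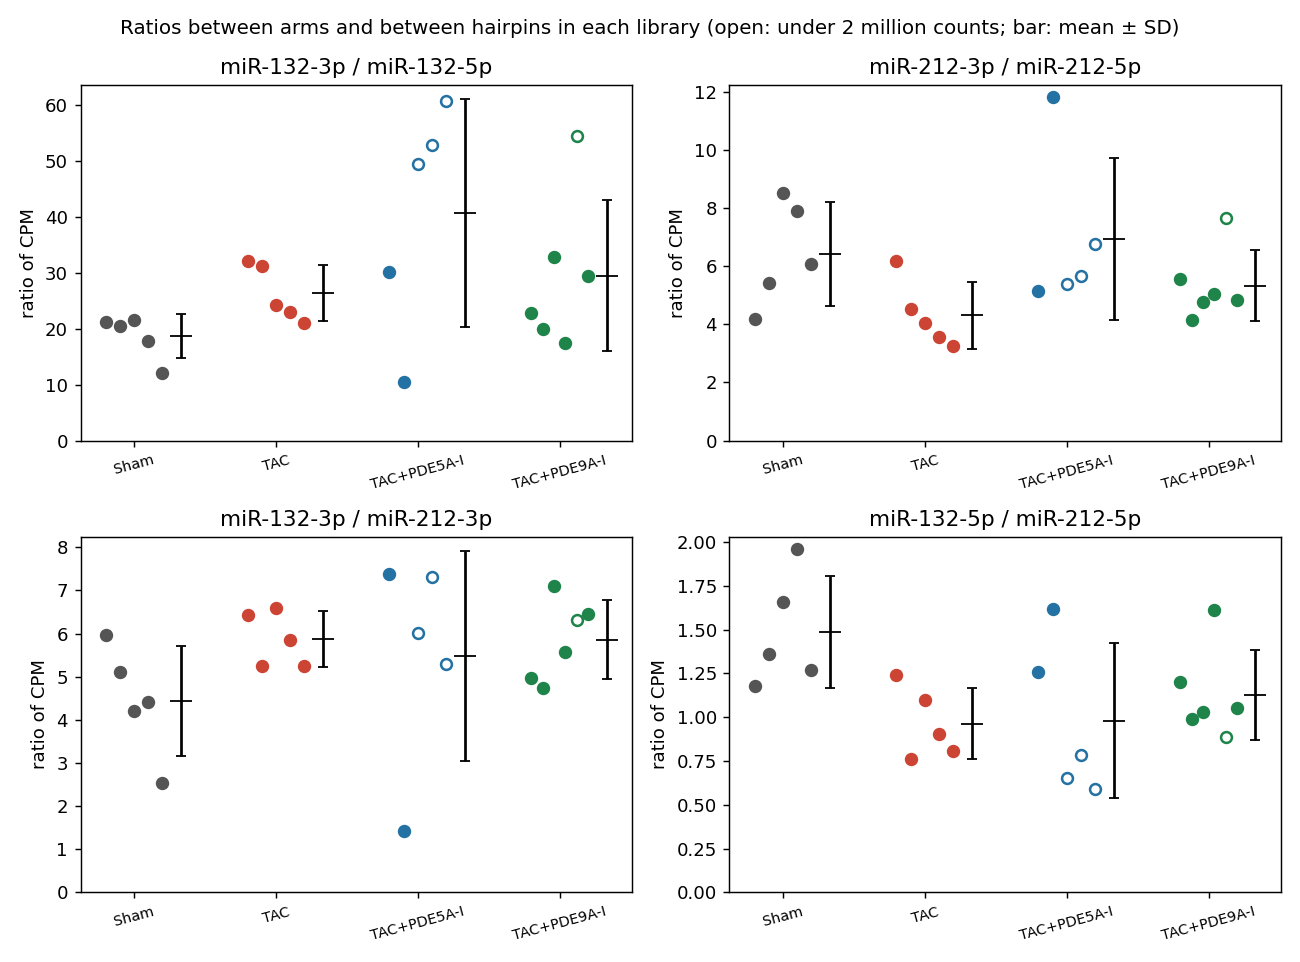
Ratio of CPM between arms of a hairpin (top) and between the hairpins (bottom) in each library (y axis), by group, with open points for libraries under 2000000 counts and a bar for the mean ± SD. The open points of miR-132-3p to miR-132-5p lie at 49.5 to 60.8, above the other 17 libraries, and TAC+PDE5A-I 2 has the lowest miR-132-3p to miR-212-3p ratio, 1.42.

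Across the 21 libraries the likeness of patterns was described by Spearman's rho of log2 CPM against 302 other microRNAs of at least 10 CPM, as a description with no test, since the libraries share groups, depth and GC content. Nearest to miR-132-3p were miR-23b-3p (rho = 0.829), miR-7688-5p (0.769) and miR-324-5p (0.764), and nearest to miR-212-3p were miR-330-3p (0.778), miR-99b-3p (0.749) and miR-490-3p (0.745). The GC content of the latter 3, 60.9%, 63.6% and 59.1%, was above the median of the tested microRNAs. Nearest to miR-132-5p were miR-17-5p (0.723), miR-130a-3p (0.592) and miR-130b-3p (0.584), and nearest to miR-212-5p were its own partner arm miR-212-3p (0.668), miR-484 (0.664) and miR-331-3p (0.662). GC content was also above the median for those nearest to miR-212-5p (54.5%, 63.6% and 61.9%). The same held for miR-7688-5p (52.2%) and miR-324-5p (60.9%), while miR-23b-3p had no GC value. For those nearest to miR-132-5p it was below the median (47.8%, 40.9% and 45.5%). Between members, rho was 0.591 for the 3p arms and -0.0364 for the arms of the miR-132 hairpin. At 0.591, miR-212-3p ranked 28 among the 302 for miR-132-3p. The remaining values were 0.504 for miR-132-3p with miR-212-5p, 0.417 for the 5p arms and 0.314 for miR-132-5p with miR-212-3p.

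The cluster was set beside a list of other microRNAs that textbook accounts give as raised or prohypertrophic in the heart. The list held 21 microRNAs, none of the cluster, and 20 were tested. It was chosen with earlier results of these data known, so that its share of calls is a description only. In TAC against Sham 3 of the 20 rose and 0 fell, beside 2.14% and 0.178% of all tested, and their median change was 0.64 on the log2 scale, where all tested microRNAs had -0.08. Among them miR-208b-3p, from an intron of the slow myosin gene Myh7, stood at 153 ± 25.8 CPM in Sham and 2680 ± 1190 CPM in TAC (log2 4.13 ± 0.68, adjusted p = 0.00172), and miR-199a-5p, known from fibroblasts, at 179 ± 18.9 and 687 ± 171 CPM (1.94 ± 0.44, adjusted p = 0.0227). Under sildenafil, 2 of the 20 rose and 11 fell against TAC, beside 21.6% and 24.8% of all tested (median -1.12 against -0.31). The smallest p there belonged to miR-208b-3p (-4.07 ± 0.68, adjusted p = 0.000453) and miR-21a-5p, described in fibrosis (-4.12 ± 0.80, adjusted p = 0.0013). The latter stood at 530 ± 475 CPM under sildenafil and 9220 ± 4620 CPM in TAC. TAC+PDE5A-I 3, 4 and 5 were under 2000000 counts, with the higher GC content given above. TAC+PDE5A-I 1 and 2 had 46% each, also above every TAC and Sham library. Over all tested microRNAs 260 were called here, 122 without the 4 libraries under 2000000 counts and 152 with GC correction. The part of depth or GC content in the list counts was not tested. Under PF-04449613, 0 of 20 passed against TAC, as did 0% of all tested (median -0.10 against -0.04). Between the drugs 4 were higher and 11 lower under sildenafil, beside 15.2% and 19.6% of all tested (median -0.82 against -0.25), led by miR-208b-3p (-3.05 ± 0.63, adjusted p = 0.00355) and miR-21a-5p (-3.61 ± 0.77, adjusted p = 0.00413). Against Sham 4 rose and 5 fell in TAC+PDE5A-I, beside 19.1% and 23.5% (median -0.26 against -0.28), with miR-214-3p, from a shared transcript with miR-199a, at 2.69 ± 0.43 (adjusted p = 0.000178) and miR-222-3p, known from vessel wall cells, at 1.4 ± 0.23 (adjusted p = 0.000203). Under PF-04449613, 3 rose and 0 fell against Sham, beside 1.25% and 0.713% (median 0.37 against -0.06), with miR-208b-3p at 3.11 ± 0.63 and miR-214-3p at 1.91 ± 0.41, both with adjusted p = 0.0118.

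Of 18 microRNAs given as lowered or antihypertrophic, a list chosen with the same knowledge, 0 rose and 1 fell in TAC against Sham, beside 2.14% and 0.178% of all tested (median -0.48 against -0.08). It was miR-9-5p, known from neurons, which went from 28.2 ± 8.01 to 12.2 ± 3.65 CPM (log2 -1.21 ± 0.31, adjusted p = 0.0429). Under sildenafil, 2 rose and 11 fell against TAC, beside 21.6% and 24.8% (median -1.22 against -0.31), with the collagen-targeting miR-29b-3p at -2.57 ± 0.46 (adjusted p = 0.000882) and miR-101a-3p at -4.38 ± 0.95 (adjusted p = 0.002). The latter stood at 125 ± 126 CPM under sildenafil and 2620 ± 355 CPM in TAC. The limits of depth and GC content given for the raised list hold for this list too. Under PF-04449613, 0 of 18 passed against TAC, as did 0% of all tested (median -0.06 against -0.04). Between the drugs 1 was higher and 11 lower under sildenafil, beside 15.2% and 19.6% (median -1.19 against -0.25), with miR-29b-3p at -2.38 ± 0.45 (adjusted p = 0.00274) and miR-101a-3p at -4.11 ± 0.93 (adjusted p = 0.00522). Against Sham 0 rose and 13 fell in TAC+PDE5A-I, beside 19.1% and 23.5% (median -1.73 against -0.28), with miR-9-5p at -2.22 ± 0.33 (adjusted p = 0.000113) and miR-29b-3p at -2.83 ± 0.47 (adjusted p = 0.000233). Under PF-04449613, 0 rose and 1 fell against Sham, beside 1.25% and 0.713% (median -0.47 against -0.06). It was miR-133b-3p, a muscle microRNA, which went from 3330 ± 340 to 1550 ± 481 CPM (log2 -1.10 ± 0.22, adjusted p = 0.0118).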

How the data were processed

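The authors deposited whole-number read counts per mature microRNA, not normalised. The submitters' processing notes name, without roles, the tools Bowtie 1.1.1, cutadapt 1.8, CASAVA 1.8.4 and DESeq 1.26.0. No source used here gives the genome build, the microRNA annotation or how reads fitting both 3p arms were assigned. Of 25958 lines, 24055 are blank and 1903 name a microRNA, and no value is 1.

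The analysis used edgeR 4.0.16 under R 4.3.3: filterByExpr by group (561 microRNAs kept), TMM scaling and 1 robust quasi-likelihood fit to the 4 groups (residual degrees of freedom, 17). The 6 comparisons are all pairs of groups. The threshold for a call was 0.05 on p-values adjusted by Benjamini-Hochberg over the 561, and log2 CPM used a prior count of 2. SE is the size of the log2 fold change divided by the root of F. The code was tested on simulated data. No libraries held identical counts. With 1 library per mouse, p-values measure the spread between mice together with that between libraries, and these cannot be told apart.

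Alternatives were DESeq2 1.42.0, other scalings, no filter, fits of 2 groups, a term for ear tag range, the replicate number as a block, a GC correction (a loess smooth per library, span 0.75, over the 487 tested microRNAs with a RefSeq sequence, 86.8%) and each library left out. Leaving out the 4 libraries under 2000000 counts was chosen after seeing the data. The members and lists were chosen with earlier results of these data known. The text names the 4 members, the 2 called microRNAs of smallest p per list and comparison, the 3 most alike per member and any microRNA of the same seed. TAC 4, TAC+PDE5A-I 2 and Sham 5 were singled out after their values were seen.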

Additional observations from a re-analysis of the deposited data

Results flagged for a closer look

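In Sham, miR-212-3p was 85.9 CPM in Sham 5, apart from the next highest library at 59.2 CPM by 0.73 of the group's range. The ratio of miR-212-3p to miR-212-5p was 11.8 in TAC+PDE5A-I 2, apart from the next at 6.76 by 0.758 of the range. These were picked out among 32 sets of values (4 arms and 4 ratios in 4 groups), in each of which chance picks out about 1 in 20. The drug effects on miR-212-3p differed by 0.68 on the log2 scale, sildenafil minus PF-04449613, in the test of the difference itself (adjusted p = 0.0434), and by 0.20 without TAC+PDE5A-I 2 (adjusted p = 0.493).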

How the results depend on the processing

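Values here are log2 fold changes or numbers of microRNAs called, from edgeR's quasi-likelihood test or, where named, DESeq2, with Benjamini-Hochberg adjusted p. The cause of each move was not tested, beyond the fewer libraries or microRNAs that a setting fits. The 4 called differences stayed above 0 under the 10 alternatives and with each library left out. Depth limits the 5p arms, with 10 to 219 counts per library.

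For miR-212-3p in TAC+PDE5A-I against TAC (0.79), the call was lost with RLE size factors (0.65, adjusted p = 0.0595), no filter (0.57, 0.134), a fit of the 2 groups (0.81, 0.0577) and a term for ear tag range (0.68, 0.0686). Against TAC+PDE9A-I (0.68) it was lost with RLE (0.54, 0.11), total counts (0.69, 0.0673), no filter (0.54, 0.148), DESeq2 (0.55, 0.101), 2 groups (0.57, 0.178), ear tag range (0.67, 0.0807) and GC correction (0.63, 0.0944). Against Sham (0.77) it was lost with RLE (0.61, 0.0824), no filter (0.72, 0.0649), DESeq2 (0.61, 0.0741), 2 groups (0.64, 0.128) and ear tag range (0.59, 0.14). For miR-132-3p in TAC+PDE5A-I against Sham (0.91) it was lost with ear tag range (0.86, 0.0577) and without the 4 libraries under 2000000 counts (0.50, 0.309).

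Calls were gained by miR-132-3p in TAC+PDE5A-I against TAC with upper-quartile scaling (1.02, 0.0134) and GC correction (1.08, 0.0278). With GC correction miR-132-5p passed against TAC (1.15), TAC+PDE9A-I (0.88, 0.0296) and Sham (1.01), and miR-212-5p against TAC (0.86) and Sham (1.32). The latter passed against Sham with total counts (0.74, 0.0448) and upper quartile (1.07, 0.00455), and against TAC+PDE9A-I with upper quartile (0.68, 0.0497).

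Under the settings named, signs turned in differences that had not been called. In TAC against Sham, miR-132-5p was 0.11 with total counts, 0.15 with no filter and 0.10 with 2 groups, and miR-212-3p 0.10, 0.15 and 0.09. In TAC+PDE5A-I against TAC, miR-132-5p was -0.08 with RLE, -0.14 with no filter, -0.04 with DESeq2 and -0.12 with ear tag range, and miR-212-5p -0.16, -0.22, -0.16 and -0.09, and -0.08 without the 4 libraries. In TAC+PDE5A-I against TAC+PDE9A-I, miR-132-5p was -0.06 with RLE, -0.04 with no filter, -0.03 with DESeq2 and -0.03 with 2 groups. Against Sham it was -0.13 with RLE, -0.08 with DESeq2, -0.07 with 2 groups and -0.29 with ear tag range. In TAC+PDE9A-I against TAC, miR-132-5p was 0.02 with total counts, 0.07 with upper quartile, 0.27 with GC correction and 0.06 without the 4 libraries. Against Sham it was 0.14, 0.01, 0.13 and 0.02 in that order, 0.05 with no filter and 0.04 with 2 groups, and miR-212-3p was -0.08 with ear tag range and -0.01 without the 4 libraries.

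The number called in TAC against Sham (13) was 20 with no filter, 51 with DESeq2, 98 with 2 groups, 4 with ear tag range and 75 without the 4 libraries. In TAC+PDE5A-I against TAC (260) it was 152 with GC correction and 122 without the 4 libraries, and against Sham (239) 120 without them. In TAC+PDE5A-I against TAC+PDE9A-I (195) it was 0 with 2 groups, 115 with ear tag range, 62 with GC correction and 104 without the 4 libraries. In TAC+PDE9A-I against TAC (0) it was 1 with upper quartile, 4 with DESeq2, 1 with GC correction and 2 without the 4 libraries. Against Sham (11) it was 30 with total counts, 38 with DESeq2, 4 with 2 groups, 1 with ear tag range and 37 without the 4 libraries.

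The main fit did not pair mice by replicate number. Deviations of same-numbered libraries correlated at -0.208 to 0.351, with 7 of 30 pairs over 0.1. Pairs of unlike numbers were not computed for reference, so these values cannot settle whether same-numbered mice belong together. With the replicate block, miR-212-3p had 0.74 (adjusted p = 0.05, just under the threshold before rounding) against TAC, 0.62 (0.12) against TAC+PDE9A-I and 0.74 (0.0543) against Sham for TAC+PDE5A-I, miR-132-5p had -0.02 against Sham, and numbers called were 14 for TAC against Sham and 264, 172 and 235 for TAC+PDE5A-I against TAC, TAC+PDE9A-I and Sham.

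With each library left out in turn, values ranged as follows. In TAC against Sham they were 0.25 to 0.59 for miR-132-3p, -0.31 to 0.25 for miR-132-5p, -0.24 to 0.31 for miR-212-3p and 0.24 to 0.89 for miR-212-5p, with 3 to 15 called. For TAC+PDE5A-I against TAC they were, in the same order, 0.08 to 0.67, -0.46 to 0.35, 0.24 to 1.01 and -0.30 to 0.33, with 165 to 280 called. In TAC+PDE9A-I against TAC they were -0.04 to 0.32, -0.17 to 0.25, 0.01 to 0.33 and -0.38 to 0.06, with 0 to 1 called. For TAC+PDE5A-I against TAC+PDE9A-I they were 0.03 to 0.39, -0.35 to 0.12, 0.20 to 0.69 and 0.00 to 0.29, with 72 to 252 called. For TAC+PDE5A-I against Sham they were 0.58 to 1.00, -0.31 to 0.12, 0.38 to 0.88 and 0.30 to 0.67, with 173 to 256 called. In TAC+PDE9A-I against Sham they were 0.51 to 0.76, -0.15 to 0.15, 0.01 to 0.34 and 0.18 to 0.56, with 7 to 31 called.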
